A study of Mus musculus with 9 samples.

Results

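Hepatic stellate cells of mouse liver that had received exosomes of Panc02 cells were compared with stellate cells that had received exosomes of pancreatic duct epithelial cells. Panc02 is a mouse pancreatic adenocarcinoma cell line, and exosomes are small vesicles that cells release with protein and RNA inside. The 6 libraries described here are 3 Panc02 libraries and 3 control libraries, out of 9 RNA-seq libraries in the series. They were chosen by the labels alone, as all columns of those groups. The stellate cells of every group were primary cells of C57BL/6 mice, grown in DMEM with fetal bovine serum depleted of exosomes. The Panc02 group received Panc02 exosomes, a further group of 3 libraries received exosomes of KPC cells, another mouse pancreatic adenocarcinoma line, and the control group was given those of mouse duct epithelial cells in primary culture. All groups therefore received exosomes, and cells without exosomes were not analysed here. The labels do not say whether libraries of 1 group came from separate cultures or animals, so every p-value measures only the spread between these samples.

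Stellate cells are the pericytes of the liver sinusoid, known for storing retinoid in lipid droplets at rest. When activated they become myofibroblasts, which contract through smooth muscle actin and lay down collagen. Transforming growth factor beta (TGF-beta) drives that change through Smad transcription factors, while mechanical tension acts through Yap with Tead factors and through serum response factor. Activated stellate cells are the main source of matrix in liver fibrosis, and they also release cytokines, chemokines and complement proteins.

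The values are FPKM, which scale fragments by the length of the transcript and the total of the library, and cover 11051 protein-coding genes, of which 10368 reached 1 FPKM in at least 3 libraries and were tested. FPKM summed to between 257120 and 307280 per library, and the read depth behind them is unknown. The libraries numbered 1 stood apart in every group. Mitochondrially encoded genes held 28.3% of summed FPKM in Panc02 replicate 1 and 26.4% in control replicate 1, against 11.2 to 15.9% in the libraries numbered 2 and 3 of all groups. Of 13 stellate cell or myofibroblast markers 8 had values, all of them genes that fibroblasts and myofibroblasts in general express (Acta2, Col1a1, Col1a2, Col3a1, Pdgfrb, Vim, Timp1 and Lox). Their summed level was 1505 to 1854 FPKM in Panc02 libraries and 1079 to 1326 FPKM in control libraries. The other members, Des, Lrat, Reln, Hand2 and Lhx2, had no value. They include those that set stellate cells apart from other fibroblasts, so the labelled cell type was not checked by them. Of macrophage markers 4 of 11 had values, which summed to 9.34 to 13 FPKM in Panc02 libraries and 10.3 to 17 FPKM in control libraries. No hepatocyte or lymphocyte marker had a value, and the only endothelial marker with one, Cdh5, stayed between 1.33 and 1.5 FPKM in Panc02 libraries and between 0.984 and 1.27 FPKM in control libraries. Duct epithelium markers, 5 of 10, summed to 25.8 to 36.7 FPKM in Panc02 libraries and 21.5 to 23.9 FPKM in control libraries, mostly through Sox9. Portal fibroblast and mesothelial markers, 4 of 7, summed to 132 to 194 FPKM in Panc02 libraries and 186 to 233 FPKM in control libraries. None of the markers tested passed between the groups, and 1 macrophage and 3 duct epithelium markers with values were too low to be tested. In such bulk RNA, fewer cells of a type and less RNA per cell cannot be told apart.

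Panc02 exosomes changed 105 genes at a Benjamini-Hochberg adjusted p under 0.05 in limma, a linear model with moderated variances fitted on log2(FPKM + 1) over all 9 libraries. Of these, 45 were higher with Panc02 exosomes (0.434% of the genes tested) and 60 were lower (0.579%). The genes that rose included matrix, contractile and TGF-beta feedback genes, with log2 differences between 0.46 and 3.97 and a median of 1.01. The genes that fell included complement genes, detoxification enzymes and inflammatory mediators, with a median log2 difference of -0.80 and the largest decrease 1.91. In all 105 the Panc02 libraries lay wholly above or wholly below the control libraries, which was true upward of 6.79% and downward of 9.3% of the genes tested. The 105 genes were called from these same libraries, so their separation follows in large part from the choice. Of the 105 genes, 56 belonged to at least 1 of the 43 gene lists described below and 49 to none. Counts of list members that passed stand beside 0.434% higher and 0.579% lower over all genes tested.

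The response was read separately in each replicate number, by subtracting the control library from the Panc02 library of the same number. The 45 genes that rose had median differences of 0.98 in number 1, 1.10 in number 2 and 1.00 in number 3, and the 60 that fell had medians of -0.72, -0.83 and -0.83. The number 1 difference was 0.56 to 1.3 times the mean of numbers 2 and 3 among genes that rose and 0.46 to 1.53 times among genes that fell. These genes had been called with all numbers in the fit, so their agreement follows in part from the choice. Over all genes tested, the number 1 difference correlated with the mean of numbers 2 and 3 at a Pearson r of 0.39, across genes that share libraries and are not independent. Numbers 2 and 3 correlated at 0.50. Only 57.8% of all genes had the same sign in number 1 and in the mean of the other two.

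A check outside the number 1 libraries came from a fit of the 6 libraries numbered 2 and 3 alone. It called 262 genes higher (2.53%) and 215 lower (2.07%), against 45 and 60 over all 9 libraries. Number 1 took no part in that choice. Of the 262 higher genes, 225 (85.9%) were also above 0 in number 1, compared with 43.7% of all genes tested, and 153 (58.4%) reached at least 0.5 times the size in numbers 2 and 3. Of the 215 lower genes, 209 (97.2%) were also below 0 in number 1, compared with 56.2% of all genes, and 172 (80.0%) reached at least 0.5 times the size. The median of the higher genes was 0.32 in number 1 and 0.60 in numbers 2 and 3, and that of the lower genes was -0.47 and -0.61. The choice by numbers 2 and 3 favours larger sizes there, so these sizes do not show a weaker response in number 1. Of the 262 higher genes 37 went the opposite way in number 1, and of the 215 lower genes 6 did. Among those 37, named here after their values were seen, Ccdc137 differed by -0.78 in number 1, 1.02 in number 2 and 1.22 in number 3. The reverse check was not possible with 1 library per group, but of the 86 genes at least 1 log2 unit higher in number 1, 47 (54.7%) were above 0 in both other numbers, against 35.2% of all genes tested. Of the 74 at least 1 unit lower in number 1, 33 (44.6%) were below 0 in both others, against 31.0% of all genes tested.

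**Figure D1:**
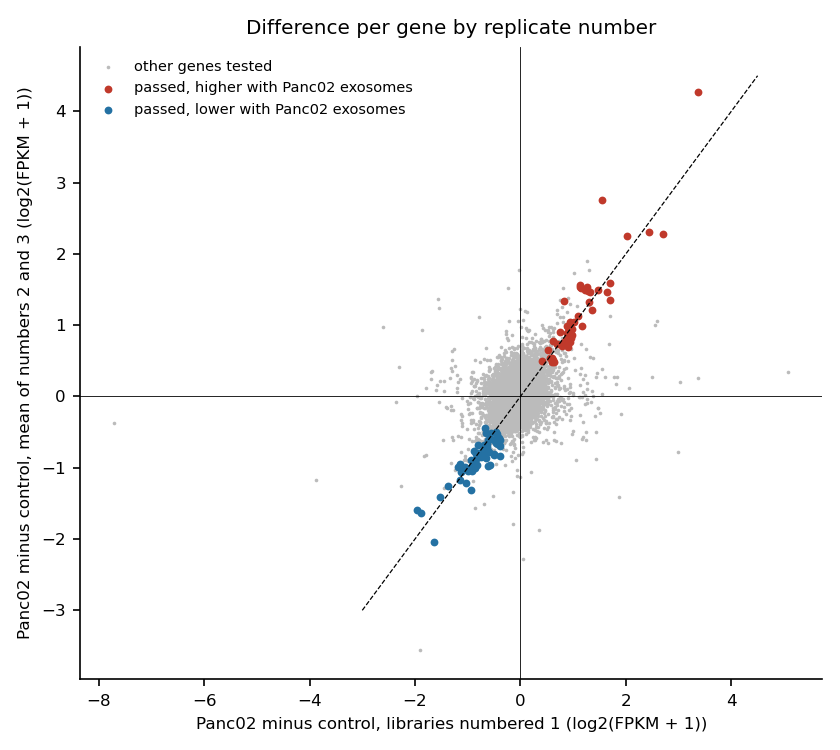
Each point is a gene tested, at its Panc02 minus control difference in log2(FPKM + 1) between the libraries numbered 1 (horizontal) and in the mean of numbers 2 and 3 (vertical), and the dashed line marks equality. The 45 genes that rose and the 60 that fell lie near the line, while the other genes form a cloud whose correlation, over all genes, is 0.39, with outliers along the horizontal axis that differ in number 1 only.

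With the replicate number added to the model, 192 genes passed higher (1.85%) and 248 lower (2.39%), and all 105 genes were among them. All 45 that rose also passed in the fit of numbers 2 and 3 alone, as did 58 of the 60 that fell. Tcp11l2 and Osbp2 were the exceptions, both at an adjusted p of 0.0503 there. The calls leaned on single libraries: without control replicate 3 only 11 genes passed higher and 12 lower, and without control replicate 2 only 13 and 13. Without Panc02 replicate 1, 2 or 3 the counts were 19 and 28, 14 and 14, and 22 and 24. Without control replicate 1 they were 22 and 34, and without KPC replicate 2 they were 29 and 34. Still, 11 genes that rose passed in each of the 9 fits that left out 1 library (Tnnt2, Adam12, Pmepa1, Anxa8, Creb3l1, C1qtnf3, Dock8, Ctgf, Has2, Vegfa and Alcam). So did 11 that fell (Dio2, Aldh3a1, Kng2, Aldh1a7, C1s1, Xdh, Ptx3, C3, Pdk4, Gm2115 and Ptgfr). Ankrd28, Pla2r1, Rhoj, Cpa6, AW551984 and Vwa5a passed in none of the 9.

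**Figure D2:**
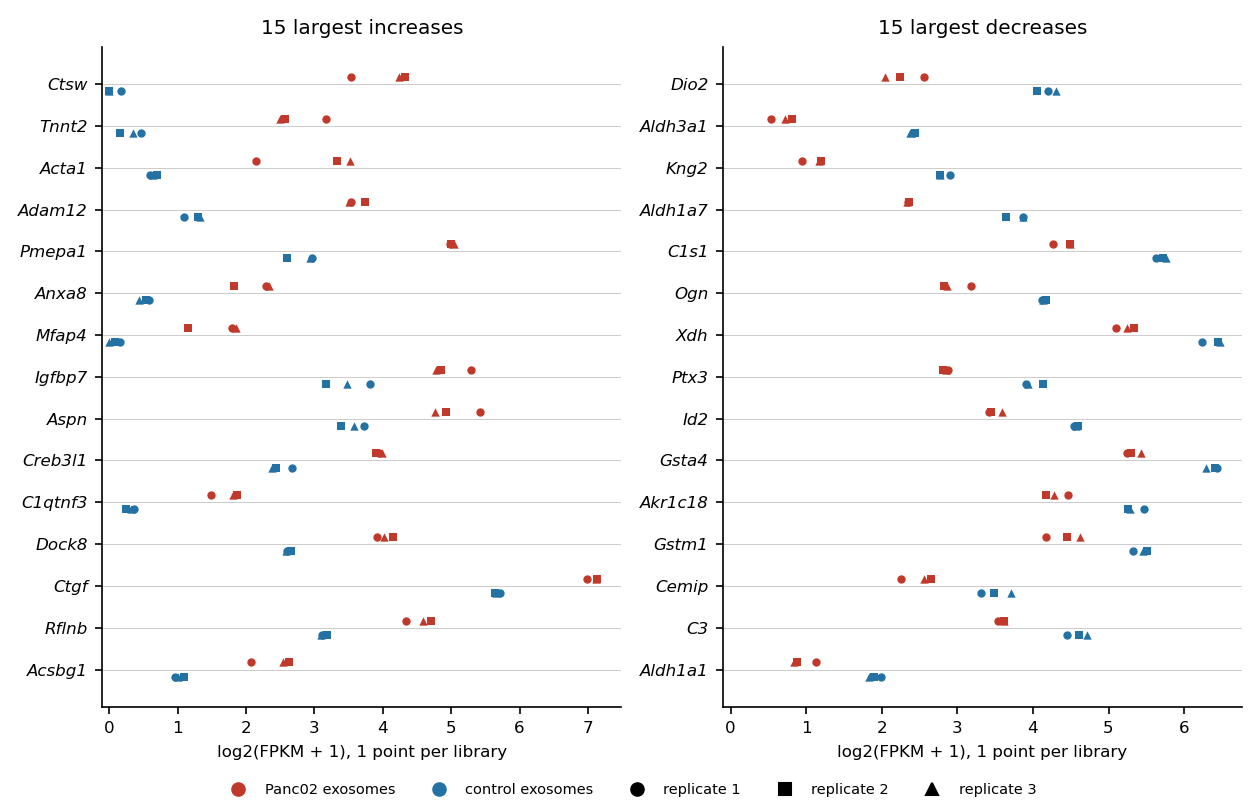
The 15 genes with the largest increases (left) and decreases (right) among genes that passed, with 1 point per library on the log2(FPKM + 1) scale, Panc02 libraries in red above control libraries in blue and the replicate number given by the marker shape. In every row all Panc02 points lie to the same side of all control points, which was a condition of the choice. Of the genes on the left, Ctsw, Acta1, Pmepa1, C1qtnf3, Dock8, Ctgf, Rflnb and Acsbg1 have their lowest Panc02 value in replicate 1.

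Pmepa1 and Ldlrad4, feedback genes of TGF-beta signalling, rose. Pmepa1, a membrane protein that binds receptor-activated Smads and limits TGF-beta signalling, lies on chromosome 2 (173224458 to 173276533, minus strand, GRCm38). It had 30.6, 31.1 and 31.8 FPKM in Panc02 replicates 1, 2 and 3, against 6.79, 5.03 and 6.67 FPKM in control replicates 1, 2 and 3. The groups lay far apart, and the log2 difference was 2.17 ± 0.20 (SE; adjusted p = 0.0031). Ldlrad4, a relative of Pmepa1 with the same Smad-binding role, had 12.6, 10.4 and 9.58 FPKM in Panc02 libraries and 5.69, 4.30 and 4.29 FPKM in control libraries, a log2 difference of 1.04 ± 0.16 (adjusted p = 0.027). Smad3, the Smad that carries the TGF-beta signal to DNA, was lower, at 7.72, 7.97 and 7.44 FPKM in Panc02 libraries and 11, 12.3 and 12.1 FPKM in control libraries (log2 difference -0.55 ± 0.08, adjusted p = 0.0255). Of 18 Smads and Smad feedback genes tested, 2 rose and 1 fell, beside 0.434% and 0.579% of all genes tested. Their median difference was 0.06 beside -0.00 over all genes tested. By replicate number it was 0.11, 0.09 and 0.07. Smad7, the inhibitory Smad, had 4.55, 6.37 and 6.47 FPKM in Panc02 libraries and 2.96, 3.37 and 3.23 FPKM in control libraries. It did not pass (adjusted p = 0.18) but did with the replicate number in the model (0.016).

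Among 16 ligands, receptors and latency proteins of the TGF-beta family, Inhba alone passed. It encodes the activin A subunit and had 20.0, 15.9 and 15.1 FPKM in Panc02 libraries, against 10.2, 9.10 and 9.27 FPKM in control libraries (log2 difference 0.77 ± 0.14, adjusted p = 0.045). Tgfb1 itself had 3.50, 6.54 and 7.23 FPKM in Panc02 libraries and 3.81, 4.59 and 5.55 FPKM in control libraries. Its groups overlapped (adjusted p = 1.0), and number 1 differed by -0.10 where numbers 2 and 3 differed by 0.43 and 0.33. Several further members passed only with the replicate number in the model, and these, like all such genes below, are named after their values were seen. They were Ltbp2, a latent TGF-beta binding protein (log2 difference 1.08, adjusted p = 0.29 without the number and 0.029 with it), and the activin-binding protein Fstl3 (0.67, 0.066 and 0.019). Fst, the related follistatin, was lower (-0.52, 0.066 and 0.020), as was the co-receptor Tgfbr3 (-0.44, 0.18 and 0.033). The list's median was 0.11, with 0.05, 0.14 and 0.13 by number. In number 1 and in the mean of numbers 2 and 3, 10 of 16 members (62.5%) had the same sign, near the 57.8% of all genes tested.

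In bone morphogenetic protein (BMP) signalling the Smad target Id2 fell. Id2, an inhibitor of helix-loop-helix transcription factors, had 9.71, 9.93 and 11 FPKM in Panc02 libraries and 22.4, 23.2 and 22.7 FPKM in control libraries (log2 difference -1.08 ± 0.13, adjusted p = 0.0086). Its groups were clear of each other in every number. The related Id3 had 3.50, 12.0 and 12.5 FPKM in Panc02 libraries and 10.3, 23.6 and 24.7 FPKM in control libraries. Its replicate 1 libraries were less than 0.5 times the others in each group, and it passed only with the replicate number in the model (adjusted p = 0.74 without it and 0.0074 with it), while the differences by number were -1.32, -0.92 and -0.93. Id1 differed by -0.46 (adjusted p = 0.25). The 11 members tested had a median of -0.12, with -0.14, -0.11 and -0.14 by number. Between number 1 and the mean of the others 10 of 11 kept their sign, beside 57.8% of all genes tested.

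Muscle-type actin and troponin genes rose, Tnnt2 and Acta1 from below 1 FPKM in every control library. Tnnt2, cardiac troponin T, had 7.95, 4.93 and 4.66 FPKM in Panc02 libraries and 0.376, 0.120 and 0.278 FPKM in control libraries. That is a 22.6-fold ratio of mean FPKM and a log2 difference of 2.42 ± 0.21 (adjusted p = 0.0028), with 2.70 in number 1. Acta1, skeletal muscle alpha-actin, had 3.43, 9.02 and 10.5 FPKM in Panc02 libraries and 0.508, 0.626 and 0.556 FPKM in control libraries (log2 difference 2.35 ± 0.43, adjusted p = 0.0485). Its difference was 1.55 in number 1, against 2.62 and 2.89, and it passed in 3 of the 9 fits that left out 1 library. Actg2, the gamma-actin of visceral smooth muscle, had 14.4, 22.3 and 23.7 FPKM in Panc02 libraries and 7.70, 7.91 and 9.07 FPKM in control libraries (log2 difference 1.17 ± 0.21, adjusted p = 0.045). It passed in 2 of the 9. For these actins every Panc02 library exceeded every control library, and the smallest difference was in number 1. Rflnb, refilin B, a filamin-binding regulator of actin bundles, belonged to no list and differed by 1.41 ± 0.24 (adjusted p = 0.038), at 1.23, 1.51 and 1.49 by number. Myo7a, an unconventional myosin, differed by 1.40 ± 0.22 (adjusted p = 0.027).

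Stellate cell smooth muscle actin, Acta2, had 440, 511 and 568 FPKM in Panc02 libraries and 299, 341 and 315 FPKM in control libraries. The groups did not overlap, but the log2 difference of 0.66 ± 0.15 did not pass (adjusted p = 0.10), while it did with the replicate number in the model (0.0086). The actin-binding protein Tagln and the muscle LIM protein Csrp2 behaved likewise, with differences of 1.22 and 1.18 and adjusted p of 0.0070 and 0.0024 with the number in the model, against 0.21 and 0.12 without it. Of 42 actin and contractile genes tested, 3 passed higher over all 9 libraries, 10 with the replicate number in the model and 14 in numbers 2 and 3 alone, and none lower in any of the 3 fits. Of all genes tested, 0.434%, 1.85% and 2.53% passed higher in these fits. In all 3 numbers 28 of the 42 were above 0, beside 19.2% of all genes tested. The median was 0.13 in number 1, 0.36 in number 2 and 0.29 in number 3. Calponin 3, Cnn3, was the exception among the 14: it had 57.3, 70.6 and 73.8 FPKM in Panc02 libraries and 72.5, 53.6 and 57.3 FPKM in control libraries, and so differed by -0.33 in number 1 but by 0.39 and 0.36 in numbers 2 and 3.

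The promoters of the 2 muscle genes with the largest increases are shown, although by number the genes differed: Tnnt2 had its largest difference in number 1 and Acta1 its smallest. Each window runs from 250 bases before to 50 after the RefSeq start site (GRCm38.p6, written 5′ to 3′ on the gene's strand). Capitals mark CATTCC, the motif of Tead factors, the CArG box of serum response factor, and CAGAC, the motif of Smads, each searched on both strands together with TGANTCA (AP-1) and TGACNNNGC (Nrf2).
Tnnt2, chr1:135836084-135836383, plus strand: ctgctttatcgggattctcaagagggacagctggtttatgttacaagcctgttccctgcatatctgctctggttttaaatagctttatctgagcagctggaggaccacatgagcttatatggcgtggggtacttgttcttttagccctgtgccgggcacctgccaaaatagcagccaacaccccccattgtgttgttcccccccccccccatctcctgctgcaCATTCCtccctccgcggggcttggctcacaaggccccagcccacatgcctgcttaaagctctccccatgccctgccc
Acta1, chr8:123894726-123895025, minus strand: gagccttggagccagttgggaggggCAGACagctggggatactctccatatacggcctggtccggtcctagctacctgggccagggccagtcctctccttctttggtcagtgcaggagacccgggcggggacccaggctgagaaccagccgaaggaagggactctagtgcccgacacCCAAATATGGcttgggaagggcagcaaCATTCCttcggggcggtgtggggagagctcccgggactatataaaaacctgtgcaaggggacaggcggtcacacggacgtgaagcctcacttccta
The Tnnt2 window held 1 Tead motif 27 bases before the start site, and the other RefSeq window of Tnnt2 held none of the motifs. The Acta1 window held a Tead motif 46 bases before the start site, a CArG box 73 bases before it and a Smad motif 225 bases before it, with no overlap between them. The window of Dio2, the gene with the largest decrease among those that passed, also held a Tead motif, 36 bases before its start site. Of the 32851 RefSeq promoter windows of mouse genes, 14.7% held the Tead motif, 1.63% the CArG box, 49.6% the Smad motif, 7.81% the AP-1 motif and 12.4% the Nrf2 motif. A matching window was found for 69 of the 105 genes that passed (65.7%), too few for a comparison of motif shares, so these matches describe single windows only.

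Fibrillar collagens, the tensile fibres of scar tissue, had a positive difference in every member but did not pass over all 9 libraries. Col1a1 (chromosome 11, 94936224 to 94953042, plus strand) had 181, 246 and 228 FPKM in Panc02 libraries and 93.0, 113 and 114 FPKM in control libraries. The groups did not overlap and the log2 difference was 1.02 ± 0.21 (adjusted p = 0.076, and 0.0041 with the replicate number in the model). Its differences by number were 0.96, 1.12 and 0.99, nearly equal, while the level in number 1 was lower in both groups. Col5a2, a chain of the type V collagen that sets fibril width, had 41.7, 53.4 and 47.9 FPKM in Panc02 libraries and 22.3, 26.4 and 26.3 FPKM in control libraries (0.90 ± 0.19, adjusted p = 0.080 and 0.0076 with the number). Col3a1 had 26.9, 39.8 and 36.1 FPKM in Panc02 libraries and 17.2, 21.4 and 20.9 FPKM in control libraries (0.75 ± 0.23, 0.27 and 0.013). Col5a3 differed by 1.15 and Col5a1 by 1.01, with adjusted p of 0.015 and 0.021 in that model. Col1a2, the partner chain of Col1a1, had 129, 205 and 193 FPKM in Panc02 libraries and 105, 156 and 145 FPKM in control libraries, groups that overlapped, with a difference of 0.37 ± 0.29 that passed in neither model (adjusted p = 0.91 and 0.12). Of 8 fibrillar collagens tested 0 passed over 9 libraries, 5 passed higher with the replicate number and 6 in numbers 2 and 3 alone. Of all genes tested, 1.85% passed higher with the replicate number and 2.53% in numbers 2 and 3 alone. The median difference was 0.82, with 0.71, 0.93 and 0.80 by number. Above 0 in every number were 7 of 8, beside 19.2% of all genes tested. Col11a2, below 1 FPKM on average in both groups, was the exception.

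**Figure D3:**
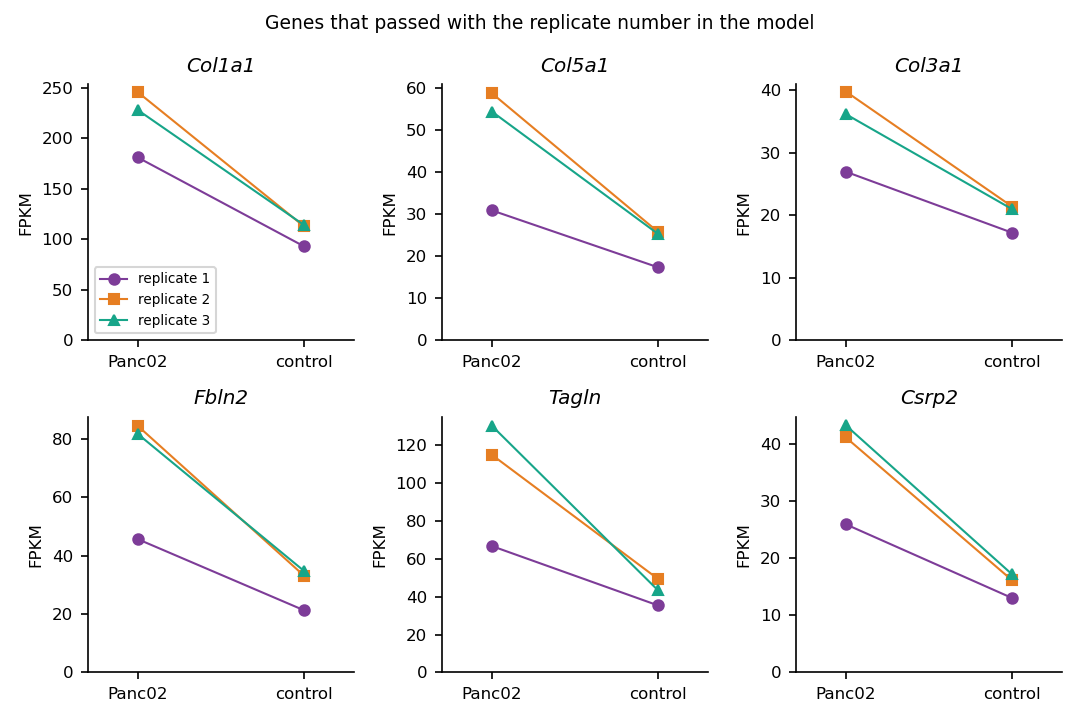
FPKM of 6 genes that passed only with the replicate number in the model, Panc02 libraries left and control libraries right, with a line joining libraries of the same number. In every panel the 3 lines fall towards the control side, and the replicate 1 line lies below the other two. The genes were picked among those that passed higher only in that model, which favours this pattern.

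Among enzymes that modify and cross-link collagen 1 gene rose. Plod2, the lysyl hydroxylase of collagen telopeptides, rose to 25.9, 26.0 and 26.8 FPKM in Panc02 libraries, against 16.8, 18.8 and 18.4 FPKM in control libraries (log2 difference 0.52 ± 0.08, adjusted p = 0.027). It was the only one of 25 collagen-processing genes to pass, against 6 with the replicate number in the model and 9 in numbers 2 and 3 alone. Of all genes tested, 1.85% passed higher with the replicate number and 2.53% in numbers 2 and 3 alone. Lox, the lysyl oxidase that cross-links collagen and elastin, had 441, 498 and 461 FPKM in Panc02 libraries and 247, 326 and 302 FPKM in control libraries (0.69 ± 0.17, adjusted p = 0.14, and 0.017 with the number). The prolyl hydroxylase subunit P4ha2 differed by 0.57 (0.18 and 0.013). In all numbers 17 of 25 members (68.0%) were above 0, beside 19.2% of all genes tested. The median was 0.13, 0.40 and 0.33 by number. The smaller value in number 1 was plain for P3h1, at 0.06 against 0.91 and 0.45, and for Fkbp10, at 0.18 against 0.50 and 0.52.

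Elastic fibre genes split, and the small proteoglycans of collagen fibrils did too. Fbn1, fibrillin 1, the backbone of microfibrils that also holds latent TGF-beta, had 18.8, 21.2 and 18.3 FPKM in Panc02 libraries and 8.30, 8.43 and 8.39 FPKM in control libraries (log2 difference 1.12 ± 0.15, adjusted p = 0.015). Mfap4, a microfibril-associated protein, had 2.48, 1.23 and 2.62 FPKM in Panc02 libraries and 0.120, 0.0599 and 0 FPKM in control libraries (1.52 ± 0.23, adjusted p = 0.0255). Its exons overlap those of Mapk7 on the other strand, and the sources do not say that strand was used in counting; Mapk7 differed by 0.32 (adjusted p = 0.86). Fibulin 2, Fbln2, had 45.7, 84.5 and 81.7 FPKM in Panc02 libraries and 21.3, 33.1 and 34.7 FPKM in control libraries, passing only with the number in the model (1.2, 0.28 and 0.0039). The fibulin-like Efemp1 went the other way, at 232, 178 and 186 FPKM in Panc02 libraries and 411, 346 and 353 FPKM in control libraries (-0.90, 0.066 and 0.0049). The 12 members had a median of 0.46, and 11 kept their sign between number 1 and the mean of the others, beside 57.8% of all genes tested.

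Asporin, Aspn, a proteoglycan that binds collagen and TGF-beta, had 41.9, 29.3 and 26.0 FPKM in Panc02 libraries and 12.3, 9.47 and 10.9 FPKM in control libraries (log2 difference 1.47 ± 0.24, adjusted p = 0.032). It lies inside Cenpp, with exons on opposite strands, and Cenpp differed by -0.23 (adjusted p = 0.67). Biglycan, Bgn, had 213, 171 and 159 FPKM in Panc02 libraries and 107, 86.4 and 94.0 FPKM in control libraries (0.91 ± 0.13, adjusted p = 0.023). Osteoglycin, Ogn, fell to 8.03, 6.09 and 6.25 FPKM in Panc02 libraries, against 16.3, 17 and 16.5 FPKM in control libraries (-1.19 ± 0.18, adjusted p = 0.025). Decorin, Dcn, differed by -0.67 and passed only with the number in the model (0.080 and 0.036). With 7 members tested, 3 above and 3 below 0 in every number, the list's median changed sign between number 1 (-0.48) and numbers 2 and 3 (0.40 and 0.20) although 6 of the 7 genes kept theirs. Over all genes tested, 19.2% were above and 21.6% below 0 in every number, and 57.8% kept their sign between number 1 and the mean of the others.

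Hyaluronan genes moved in opposite directions. Has2, the main hyaluronan synthase of fibroblasts, had 14, 16.8 and 16.2 FPKM in Panc02 libraries and 5.14, 6.44 and 5.57 FPKM in control libraries (log2 difference 1.31 ± 0.12, adjusted p = 0.0028). Cemip, which binds hyaluronan and drives its breakdown, fell to 3.78, 5.28 and 4.87 FPKM in Panc02 libraries, against 8.96, 10.2 and 12.1 FPKM in control libraries (-1.02 ± 0.16, adjusted p = 0.032). Both differences had the same sign and a like size in every number. The other 15 hyaluronan and surface proteoglycan genes did not pass. Among fibronectin and matricellular genes 0 of 15 passed. Fn1, fibronectin, had 330, 395 and 379 FPKM in Panc02 libraries and 246, 273 and 267 FPKM in control libraries (0.49 ± 0.16, adjusted p = 0.28, and 0.043 with the number). Cthrc1, a secreted collagen triple helix protein, differed by 0.63 (0.059 and 0.0073) and matrix Gla protein, Mgp, by -0.50 (0.080 and 0.011). Spp1, osteopontin, did not differ beyond its spread, at 338, 355 and 357 FPKM in Panc02 libraries and 362, 404 and 369 FPKM in control libraries (-0.11 ± 0.09, adjusted p = 0.95).

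Of the proteases, Adam12 stood out. This metalloprotease of activated mesenchymal cells (chromosome 7, 133883199 to 134232146, minus strand) had 10.6, 12.3 and 10.3 FPKM in Panc02 libraries and 1.13, 1.46 and 1.51 FPKM in control libraries. The ratio of means was 8.11, and the log2 difference 2.35 ± 0.18 (adjusted p = 0.0028), with 2.45, 2.44 and 2.17 by number. Adamts12 had 4.34, 4.68 and 3.73 FPKM in Panc02 libraries and 1.77, 1.99 and 2.10 FPKM in control libraries (0.83 ± 0.11, adjusted p = 0.016). The other 13 Adam and Adamts genes did not pass. Of 9 matrix metalloproteases and inhibitors 0 passed. Timp1, the secreted inhibitor raised in fibrosis, had 46.0, 65.8 and 75.2 FPKM in Panc02 libraries and 39.7, 52.1 and 49.2 FPKM in control libraries, groups that overlapped (0.38 ± 0.24, adjusted p = 0.81). Of 12 plasminogen activator and serpin genes 0 passed. Ctsw, cathepsin W, a protease of lymphocytes, had the largest difference of all genes that passed, at 10.6, 19.0 and 17.8 FPKM in Panc02 libraries and 0.122, 0 and 0 FPKM in control libraries (log2 difference 3.97 ± 0.48, adjusted p = 0.0086). Its exons overlap Fibp on the other strand, and Fibp differed by -0.00 (adjusted p = 1.0).

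Connective tissue growth factor, Ctgf, a Yap and TGF-beta target on chromosome 10 (24595442 to 24598683, plus strand), had 126, 139 and 138 FPKM in Panc02 libraries and 51.4, 48.7 and 49.1 FPKM in control libraries. The log2 difference was 1.41 ± 0.12 (adjusted p = 0.0028) and 1.27, 1.49 and 1.47 by number. Of 27 Ccn and Yap-Tead genes it alone passed. Cyr61, another Yap target of the Ccn family, had 96.3, 126 and 125 FPKM in Panc02 libraries and 62.2, 65.2 and 68.0 FPKM in control libraries (0.81 ± 0.19, adjusted p = 0.11, and 0.0087 with the number). Wisp1, a further Ccn protein, differed by 0.85 (0.11 and 0.011) and Ankrd1 by 0.36 (0.33 and 0.022). The list's median was 0.12 in number 1, 0.17 in number 2 and -0.06 in number 3. Between number 1 and the mean of the others 18 of 27 genes (66.7%) kept their sign, not far above the 57.8% of all genes tested.

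Growth factors of vessels and epithelium divided by member. Vegfa, the main angiogenic factor, had 34.5, 33.4 and 31.6 FPKM in Panc02 libraries and 17, 16.3 and 16.6 FPKM in control libraries (log2 difference 0.95 ± 0.10, adjusted p = 0.0043). Hbegf, a ligand of the EGF receptor, rose to 19.2, 18.1 and 19.2 FPKM in Panc02 libraries, against 13, 10.3 and 12.8 FPKM in control libraries (0.61 ± 0.11, adjusted p = 0.045). Kitl, stem cell factor, fell to 28.2, 29.0 and 27.5 FPKM in Panc02 libraries, against 45.3, 48.5 and 52.3 FPKM in control libraries (-0.76 ± 0.09, adjusted p = 0.0086). Fgfr2 fell as well (-0.51 ± 0.09, adjusted p = 0.040). Of 27 vascular and mitogenic genes these 4 passed, 2 higher and 2 lower, beside 0.434% and 0.579% of all genes tested. The sign was the same in number 1 and in the mean of the others for 23 of the 27 (85.2%), beside 57.8% of all genes tested. The median of the list was 0.13. Igfbp7, a matrix-bound IGF-binding protein, had 38.2, 27.9 and 26.3 FPKM in Panc02 libraries and 13.1, 7.96 and 10.1 FPKM in control libraries (1.49 ± 0.22, adjusted p = 0.024). Its exons overlap Polr2b on the other strand, which differed by -0.05 (adjusted p = 1.0).

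Of the receptors for platelet-derived growth factor (PDGF), the alpha receptor fell. Pdgfra, the alpha receptor (chromosome 5, 75152292 to 75198215, plus strand), fell to 21.8, 24.2 and 22.7 FPKM in Panc02 libraries, against 37.0, 43.9 and 42.4 FPKM in control libraries (log2 difference -0.81 ± 0.10, adjusted p = 0.0086). Pdgfrb, the receptor through which PDGF drives stellate cell growth, had 8.92, 18.8 and 17.2 FPKM in Panc02 libraries and 11.4, 12.6 and 14.3 FPKM in control libraries. It did not pass (0.16 ± 0.32, adjusted p = 1.0), and number 1 differed by -0.32 where numbers 2 and 3 differed by 0.54 and 0.25. Of the surface adhesion molecules, Ncam1, Alcam and Itgb3 rose. Ncam1 had 18.7, 19.4 and 18.1 FPKM in Panc02 libraries and 9.56, 10.2 and 8.06 FPKM in control libraries (0.95 ± 0.13, adjusted p = 0.014). Alcam had 22.6, 21.3 and 20.0 FPKM in Panc02 libraries and 11, 11.1 and 11.3 FPKM in control libraries (0.87 ± 0.10, adjusted p = 0.0056). The integrin chain Itgb3, part of the vitronectin receptor, rose by 0.89 ± 0.12 (adjusted p = 0.016). These were the 3 of 16 adhesion genes that passed, where 0.434% of all genes tested passed higher. The list had medians of 0.14, 0.35 and 0.33 by number. Anxa8, an annexin, was the only one of 17 annexin and S100 genes to pass, at 3.88, 2.55 and 4.06 FPKM in Panc02 libraries and 0.495, 0.453 and 0.352 FPKM in control libraries (1.63 ± 0.14, adjusted p = 0.0028). The median of that list leaned the other way, at -0.18, with -0.29, -0.26 and -0.046 by number. Below 0 in every number were 10 of the 17 (58.8%), against 21.6% of all genes tested.

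Inflammatory mediators changed in both directions. Of 11 chemokines tested, Cxcl5 and Cxcl1, which attract neutrophils, fell and Ccl17, which attracts T cells, rose. Cxcl5 had 110, 111 and 117 FPKM in Panc02 libraries and 177, 213 and 189 FPKM in control libraries (log2 difference -0.77 ± 0.10, adjusted p = 0.014). Cxcl1 had 36.1, 37.0 and 37.5 FPKM in Panc02 libraries and 53.8, 50.03 and 56.9 FPKM in control libraries (-0.53 ± 0.09, adjusted p = 0.0355). Ccl17 had 4.38, 5.34 and 3.67 FPKM in Panc02 libraries and 1.10, 1.90 and 0.902 FPKM in control libraries (1.26 ± 0.18, adjusted p = 0.019). Ccl2, which attracts monocytes, had 85.9, 126 and 138 FPKM in Panc02 libraries and 63.7, 104 and 94.3 FPKM in control libraries, and passed only with the number in the model (0.41 ± 0.29, adjusted p = 0.85 and 0.047). The chemokine median was 0.29, 0.03 and -0.10 by number. In every number 5 of the 11 genes were above and 5 below 0, beside 19.2% and 21.6% of all genes tested.

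In the interleukin 6 family, Il6 fell and Il11, a fibroblast cytokine linked to fibrosis, rose. Il6 was low, at 0.846, 0.956 and 0.810 FPKM in Panc02 libraries and 1.60, 2.27 and 2.29 FPKM in control libraries (log2 difference -0.70 ± 0.11, adjusted p = 0.032). Il11 had 6.46, 6.78 and 6.81 FPKM in Panc02 libraries and 3.89, 3.54 and 3.56 FPKM in control libraries (0.72 ± 0.09, adjusted p = 0.0091). The endotoxin receptor Tlr4 fell to 8.07, 8.11 and 8.11 FPKM in Panc02 libraries, against 11.8, 15.8 and 14.4 FPKM in control libraries (-0.71 ± 0.11, adjusted p = 0.027). Among 25 NF-kB subunits and targets 0 passed: the lowest p were those of Il1r1 (-0.39, adjusted p = 0.068) and Ptgs2, cyclooxygenase 2 (0.42, 0.15), which differed in direction. Of 26 interferon response and antigen presentation genes 0 passed, with a median of 0.00.

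Complement genes had the lowest median of the 43 lists. Of 12 complement, pentraxin and kininogen genes tested 6 fell and 0 rose, beside 0.579% and 0.434% of all genes tested. All 12 had a negative log2 difference, and 10 were below 0 in every number, beside 21.6% of all genes tested. The median was -0.62, with -0.61, -0.78 and -0.66 by number. C3, the central component (chromosome 17, 57203970 to 57228136, minus strand), had 10.6, 11.3 and 11.3 FPKM in Panc02 libraries and 20.8, 23.5 and 25.3 FPKM in control libraries (log2 difference -1.0 ± 0.10, adjusted p = 0.0034). C1s1, a protease of the C1 complex, had 18.2, 21.5 and 21.6 FPKM in Panc02 libraries and 48.6, 51.7 and 53.3 FPKM in control libraries (-1.29 ± 0.12, adjusted p = 0.0028). Every Panc02 library was below every control library by a wide margin. Its copy C1s2 (-0.95 ± 0.12, adjusted p = 0.012) and the partner protease C1ra (-0.90 ± 0.14, adjusted p = 0.027) fell too, although reads of C1s1 and C1s2 may be divided between near-identical copies. Ptx3, a long pentraxin that activates complement, had 6.32, 5.99 and 6.18 FPKM in Panc02 libraries and 14, 16.5 and 14.3 FPKM in control libraries (-1.15 ± 0.11, adjusted p = 0.0031). Kng2, a kininogen, the precursor of bradykinin, had 0.919, 1.28 and 1.24 FPKM in Panc02 libraries and 6.49, 5.80 and 5.83 FPKM in control libraries, a ratio of means of 0.19 (-1.72 ± 0.15, adjusted p = 0.0028). The 6 that did not pass were Colec12, Cd55, C1rl, Cd59a, Masp1 and C1qbp, with log2 differences between -0.35 and -0.01.

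Of 55 detoxification enzymes tested 10 fell and 1 rose, against 0.579% and 0.434% of all genes tested. Below 0 in every number were 27 (49.1%), against 21.6% of all genes tested. Aldh3a1, an aldehyde dehydrogenase induced through the aryl hydrocarbon receptor (chromosome 11, 61207537 to 61218421, plus strand), had 0.452, 0.759 and 0.644 FPKM in Panc02 libraries and 4.38, 4.45 and 4.17 FPKM in control libraries. The ratio of means was 0.143 and the log2 difference -1.72 ± 0.11, with the lowest adjusted p of all genes tested (0.0014). The receptor itself, Ahr, fell to 1.67, 1.99 and 1.69 FPKM in Panc02 libraries, against 3.03, 4.23 and 3.53 FPKM in control libraries (-0.72 ± 0.12, adjusted p = 0.032). Aldh1a7 had 4.08, 4.14 and 4.03 FPKM in Panc02 libraries and 13.6, 11.5 and 13.6 FPKM in control libraries (-1.45 ± 0.13, adjusted p = 0.0028), and the retinaldehyde dehydrogenase Aldh1a1, a near copy, had 1.18, 0.833 and 0.789 FPKM in Panc02 libraries and 2.99, 2.71 and 2.55 FPKM in control libraries (-0.96 ± 0.12, adjusted p = 0.0086). Reads shared between these paralogs may be divided between them. Xdh, xanthine dehydrogenase, which makes uric acid, had 33.2, 39.5 and 36.8 FPKM in Panc02 libraries and 74.6, 86.0 and 87.6 FPKM in control libraries (-1.16 ± 0.12, adjusted p = 0.0040).

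The glutathione transferases Gsta4, Gstm1 and Mgst1 fell. Gsta4, which clears lipid peroxidation products, had 36.9, 38.2 and 42.2 FPKM in Panc02 libraries and 85.7, 83.7 and 77.4 FPKM in control libraries (log2 difference -1.05 ± 0.12, adjusted p = 0.0069). Gstm1 had 17.1, 20.9 and 23.6 FPKM in Panc02 libraries and 39.2, 44.7 and 42.8 FPKM in control libraries (-1.02 ± 0.16, adjusted p = 0.027). Mgst1, a microsomal transferase, had 5.70, 7.22 and 7.09 FPKM in Panc02 libraries and 11, 13.9 and 12.8 FPKM in control libraries (-0.82 ± 0.13, adjusted p = 0.027). In each case the Panc02 libraries were at about 0.5 times the control level in every number. The aldo-keto reductases Akr1c18, which inactivates progesterone, and Akr1c14 fell by 1.03 and 0.83 on the log2 scale (adjusted p = 0.0255 and 0.0091); they too have close paralogs. Aldh1l2, a mitochondrial folate enzyme, was the member that rose (0.73 ± 0.10, adjusted p = 0.015). Nqo1 and Hmox1, textbook Nrf2 targets, did not differ beyond their spread (0.21 ± 0.29 and -0.06 ± 0.22, both with an adjusted p of 1.0), and Nfe2l2, the gene of Nrf2, differed by -0.34 and passed only with the number in the model (0.14 and 0.037). The median of the list was -0.14, with -0.21, -0.11 and -0.18 by number. Between number 1 and the mean of the others 42 of 55 genes (76.4%) kept their sign, beside 57.8% of all genes tested.
The Mgst1 promoter window is shown for its Nrf2 motif, in capitals 56 bases before the RefSeq start site read on the reverse strand; its other RefSeq window and the windows of C3, Kng2 and Dio2 held none.
Mgst1, chr6:138140277-138140576, plus strand: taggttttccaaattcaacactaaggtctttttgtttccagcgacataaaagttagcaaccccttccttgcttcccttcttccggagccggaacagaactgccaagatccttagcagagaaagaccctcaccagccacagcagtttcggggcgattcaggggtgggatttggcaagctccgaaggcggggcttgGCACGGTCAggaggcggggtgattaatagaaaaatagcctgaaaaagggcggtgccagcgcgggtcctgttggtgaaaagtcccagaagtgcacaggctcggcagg

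**Figure D4:**
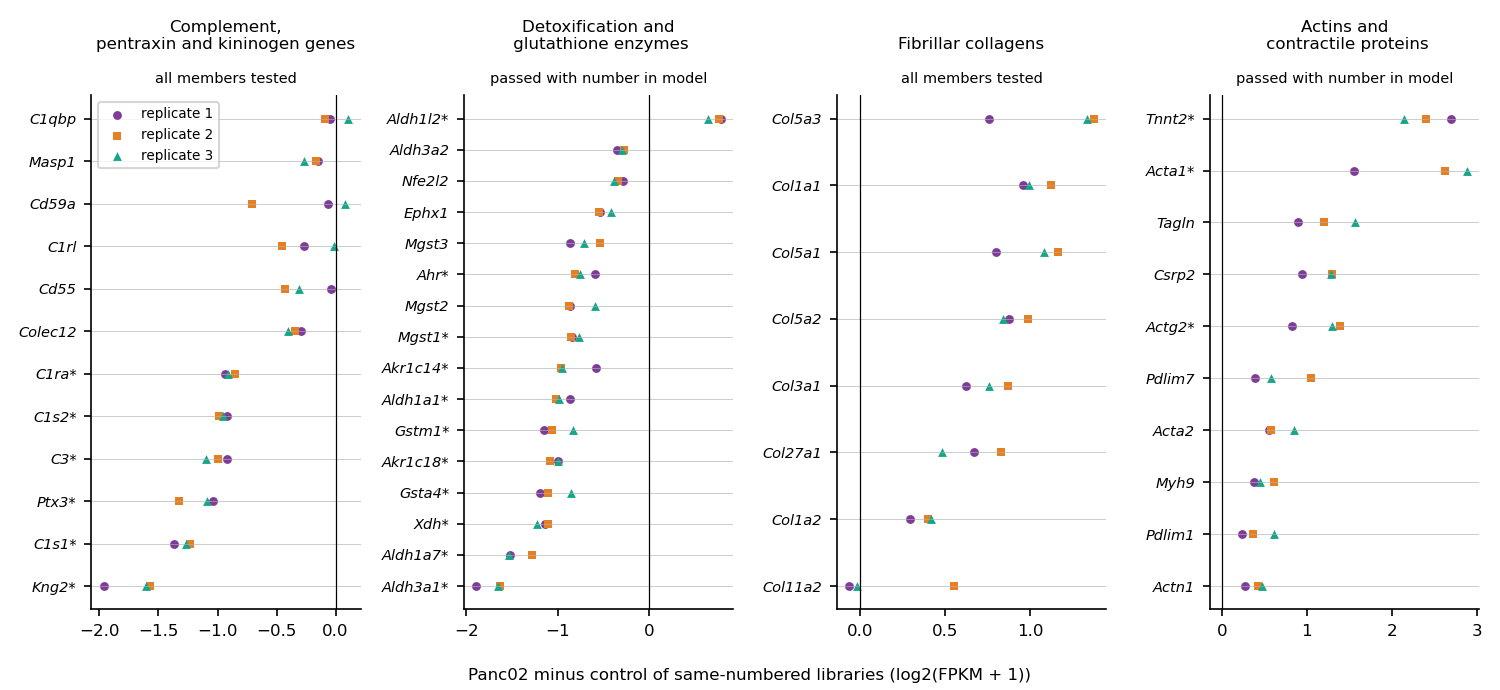
Panc02 minus control difference in log2(FPKM + 1) between same-numbered libraries for 4 gene lists, 1 marker per replicate number; an asterisk marks genes that passed over all 9 libraries. The 6 complement genes with an asterisk lie well below 0 in all numbers, while all collagens but Col11a2 lie to the right of 0. The complement and collagen panels show every member tested, and the detoxification and contractile panels only those that passed with the replicate number in the model, so their side of 0 follows from that choice.

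Retinoid and thyroid hormone metabolism changed at single genes. Dio2, the deiodinase that makes active thyroid hormone (chromosome 12, 90724552 to 90738438, minus strand), had the largest decrease, at 4.88, 3.72 and 3.12 FPKM in Panc02 libraries and 17.3, 15.7 and 18.7 FPKM in control libraries (log2 difference -1.91 ± 0.20, adjusted p = 0.0047). No other of the 17 nuclear receptor and hormone genes tested passed. Rdh10, which oxidises retinol to retinaldehyde, rose to 11.8, 11.9 and 11.5 FPKM in Panc02 libraries, against 5.94, 6.57 and 6.05 FPKM in control libraries (0.82 ± 0.14, adjusted p = 0.042). Together with the decrease of Aldh1a1 these were the 2 of 12 quiescent stellate cell and lipid droplet genes that passed. Acsbg1, an acyl-CoA synthetase, had 3.23, 5.20 and 4.83 FPKM in Panc02 libraries and 0.942, 1.13 and 1.00 FPKM in control libraries (1.40 ± 0.23, adjusted p = 0.035). Creb3l1, a membrane-bound transcription factor of the secretory pathway that acts on collagen genes, had 14.3, 14 and 14.9 FPKM in Panc02 libraries and 5.39, 4.44 and 4.23 FPKM in control libraries (1.44 ± 0.12, adjusted p = 0.0028). It was the 1 of 37 endoplasmic reticulum and amino acid stress genes that passed. Of the 37, 21 (56.8%) were above 0 in every number, beside 19.2% of all genes tested. In numbers 2 and 3 alone 7 passed higher, where 2.53% of all genes tested did. Cholesterol and fatty acid synthesis had 0 of 32 genes passing but 20 (62.5%) above 0 in every number, with medians of 0.14, 0.22 and 0.21. Of 26 glycolysis and hypoxia genes only Vegfa passed, and Hif1a differed by -0.06 ± 0.13 (adjusted p = 1.0).

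Several lists held no gene that passed, and some lists disagreed between replicate numbers. Mitochondrially encoded genes, 13 in all, had median differences of 0.06 in number 1, -0.58 in number 2 and -0.23 in number 3, and only 4 of 13 (30.8%) kept their sign between number 1 and the mean of the others. The level of these genes in replicate 1 stood above the other replicates, by a median of 1.37 on the log2 scale. Nuclear-encoded respiratory chain genes, 75 of them, had medians of -0.22, -0.06 and 0.07, and 34 (45.3%) kept their sign. Cytosolic ribosomal protein genes, 78 of them, had medians of -0.27, -0.11 and 0.09, and 65 were split in sign between the numbers. For nuclear receptors and hormone genes, of which Dio2 passed, the share was 47.1%, and for tetraspanin, endosome and vesicle genes 53.1%, beside 57.8% over all genes tested. Cell cycle and DNA replication genes had 0 of 38 passing and a median of -0.01, which was 0.02 with library totals made equal; Mki67, the proliferation marker, differed by 0.30, 0.09 and -0.37 by number. Basement membrane genes had medians of -0.18, 0.20 and 0.04. No gene passed among other collagens, Wnt genes, immediate early genes, guidance genes, developmental transcription factors or 155 solute carriers. In the guidance list Sema7a, a membrane-anchored semaphorin, differed by 1.38 (adjusted p = 0.059, and 0.0024 with the number).

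**Figure D5:**
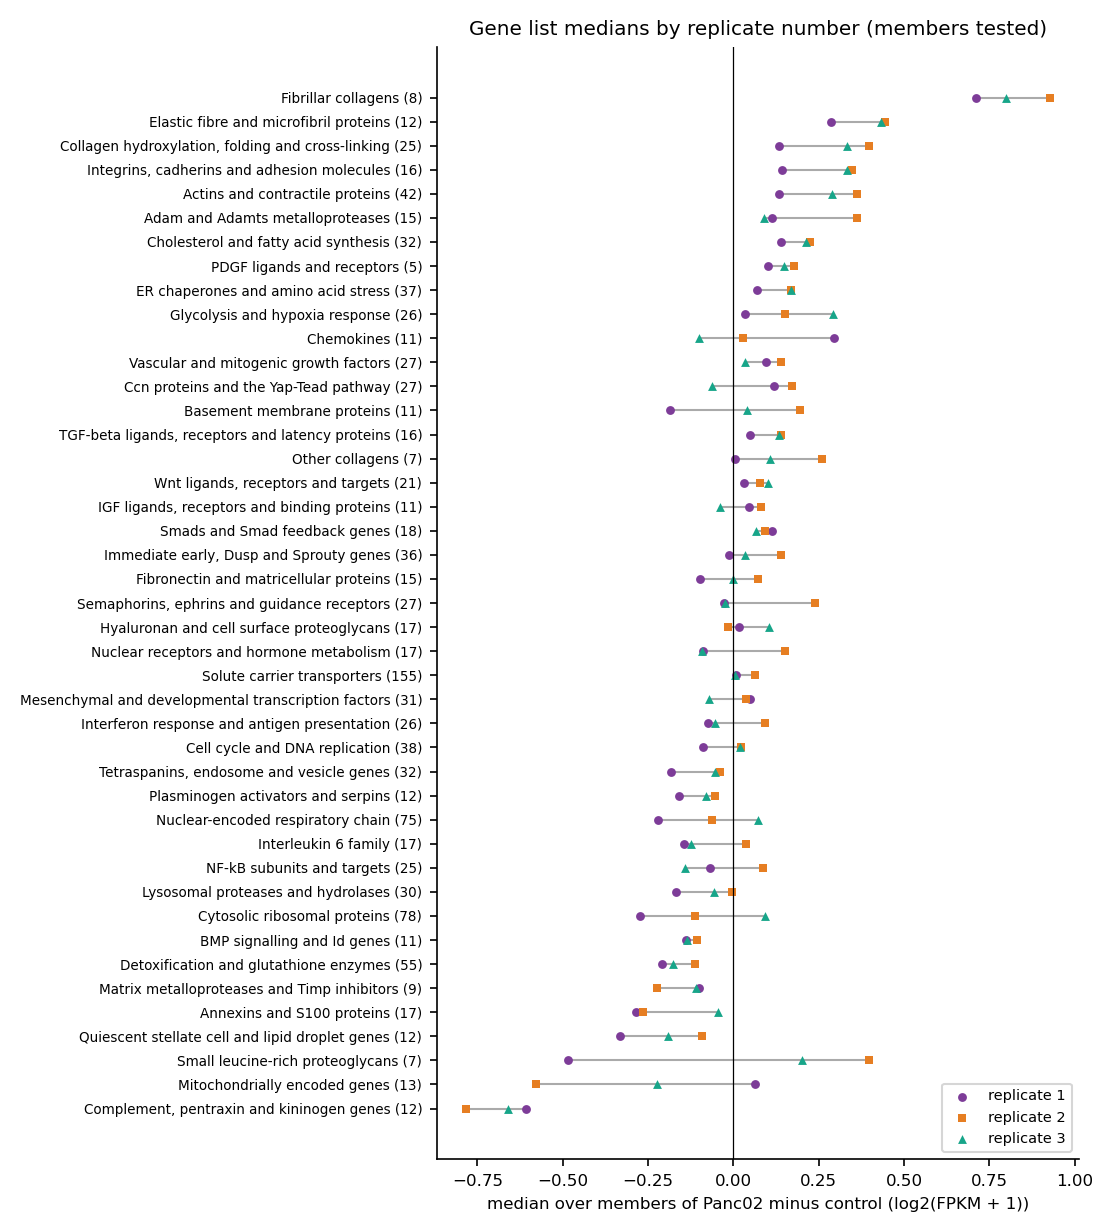
Median Panc02 minus control difference in log2(FPKM + 1) over the tested members of each of the 43 gene lists (number of members in brackets), with 1 marker per replicate number joined by a grey line, sorted by the median of the 9-library fit. Fibrillar collagens (0.71, 0.93 and 0.80) and complement genes (-0.61, -0.78 and -0.66) lie clear of 0 in every number, while mitochondrially encoded genes and small leucine-rich proteoglycans span 0.

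Set against the KPC exosomes, Panc02 exosomes gave no gene that passed: 0 of 10368 had an adjusted p under 0.05 in limma, 86 had an unadjusted p under 0.05, and the lowest adjusted p was 1.0. With the replicate number in the model 0 passed as well, with 260 at an unadjusted p under 0.05. In numbers 2 and 3 alone 8 passed, none of them among the 105 genes changed against control. Pmepa1 had 30.6, 31.1 and 31.8 FPKM in Panc02 libraries and 14.2, 18.8 and 26.5 FPKM in KPC libraries. Ctsw had 10.6, 19.0 and 17.8 FPKM in Panc02 libraries and 3.60, 8.42 and 19.9 FPKM in KPC libraries. KPC minus control differences had a median of 0.75 over the 45 genes that rose and -0.63 over the 60 that fell, where Panc02 minus control differences had medians of 1.01 and -0.80. Both comparisons share the control libraries, and the genes were chosen by their Panc02 minus control difference. No difference between the exosomes of the 2 lines passed for any of the 105 genes with 3 libraries per group, which does not show that they act alike.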

How the data were processed

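The deposited values are FPKM, and per the submitters' processing notes reads were trimmed with cutadapt, aligned to GRCm38 with HISAT2 2.0.4 and quantified with StringTie 1.2.3. Libraries were made from total RNA with the TruSeq kit, per the labels' protocols. Use of strand and read depth: not given in the sources used here, so the reads behind a value are unknown. FPKM were converted to log2(FPKM + 1), which understates the fold of genes near or below 1 FPKM. A gene was tested if 3 or more of the 9 libraries reached 1 FPKM, in limma 3.58.1 (R 4.3.3) with a mean per group, a prior variance that follows the level, two-sided tests and Benjamini-Hochberg adjustment over 10368 genes. The KPC libraries entered to share the estimate of spread. The fit was also run on simulated data with known changes, in which each library varied on its own. Same-numbered libraries here deviated together, so that run does not show how often calls in these data are false.

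Same-numbered libraries deviated together from their group means: across genes, correlations spanned 0.64 to 0.81 among the libraries numbered 1 and 0.24 to 0.51 among the rest, all above 0.1, so a model that adds the number as a block is quoted where a call changes with it. Libraries numbered 2 and 3 of different groups correlated at 0.30 to 0.61, so the pairing is mostly the contrast of number 1 with the rest.

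The genes described are those that passed, the 15 largest changes each way, up to 8 members that passed or else 4 with the lowest p per list, and 22 genes given whatever their values, of which 20 were tested and 0 passed; Tgfb2 and Cxcl12 were not analysed here. The 15 largest changes were taken among genes that passed, whose groups did not overlap and whose higher group mean reached 1 FPKM. The lists and these rules were chosen with earlier results of these data known. Gene identifiers matched GENCODE M21 for 11038 genes (99.9%). Promoters came from RefSeq. Exons of 27 of the 105 genes overlap a gene on the other strand. Some genes that the rules select are not reported here.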

Additional observations from a re-analysis of the deposited data

How the results depend on the processing

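Counts are given as higher, then lower. Against 45 and 60 genes, library totals made equal gave 23 and 23, the Panc02 and control libraries alone gave 43 and 35, the replicate block gave 192 and 248, and leaving out the 3 replicate 1 libraries gave 262 and 215. Without 1 library in turn the counts ran between 11 and 62 and between 12 and 64. A pseudocount of 0.1 (47 and 50), no filter (48 and 58) and equal totals without mitochondrial genes (54 and 60) stayed within 1.5 times. The cause of these shifts was not tested. None of the 105 genes changed direction under any of these settings; 44 passed with equal totals and 66 with the Panc02 and control libraries alone. For Panc02 against KPC exosomes the counts were 0, 0 with the replicate block and 8 without the replicate 1 libraries. Of the described genes that had not passed, 7 reversed direction. Mki67 differed by -0.14 without the 3 replicate 1 libraries. Without 1 library in turn Mki67 ran between -0.22 and 0.19, Col6a1 between -0.16 and 0.00433, Hif1a between -0.17 and 0.016, Hmox1 between -0.18 and 0.12, Pdgfrb between -0.030 and 0.47, mt-Co2 between -0.73 and 0.024, and mt-Nd3 between -0.50 and 0.024. The median of cell cycle genes changed sign with equal totals and that of interferon genes with the pseudocount, and 6 of 43 list medians did without the replicate 1 libraries. Without 1 library, 10 did (Panc02 replicate 2), 9 (control replicate 1), 7 (Panc02 replicate 1), 5 (Panc02 replicate 3), 2 (control replicate 2) and 1 (control replicate 3). FPKM carry no read counts, so the error of genes near 1 FPKM could not be set apart from that of abundant genes.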

Other observations

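Genes outside the lists also changed. The arrestin-domain genes Txnip, Arrdc3 and Arrdc4, which limit glucose uptake or receptor signalling, fell together. Txnip had 9.65, 12.3 and 8.56 FPKM in Panc02 libraries and 18, 23.3 and 19.0 FPKM in control libraries (log2 difference -0.92 ± 0.15, adjusted p = 0.029). Arrdc4 fell by 0.80 (adjusted p = 0.015) and Arrdc3 by 0.80 (adjusted p = 0.0091). Pdk4, the kinase that shuts off pyruvate dehydrogenase, fell to 12.5, 12.5 and 12.7 FPKM in Panc02 libraries, against 23.4, 25.2 and 23.3 FPKM in control libraries (-0.88 ± 0.09, adjusted p = 0.0042), and Pdp1, the phosphatase with the opposite action on that complex, fell as well (-0.69 ± 0.10, adjusted p = 0.017). Ptgfr, the prostaglandin F receptor, fell to 8.50, 8.92 and 9.02 FPKM in Panc02 libraries, against 15.7, 17.7 and 16.5 FPKM in control libraries (-0.84 ± 0.08, adjusted p = 0.0040). Prl2c2, a proliferin with near-identical copies, fell by 0.83 (adjusted p = 0.013). Among genes that rose, Dock8, an exchange factor known from immune cells, had 14.1, 16.7 and 15.2 FPKM in Panc02 libraries and 5.04, 5.33 and 5.00 FPKM in control libraries (1.41 ± 0.15, adjusted p = 0.0043), and C1qtnf3, a secreted relative of adiponectin, differed by 1.42 ± 0.15 (adjusted p = 0.0045). Havcr2 (Tim-3), Tnfrsf11b (osteoprotegerin) and the natriuretic peptide clearance receptor Npr3 rose by 0.82, 0.85 and 0.53 on the log2 scale.

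Genes of the intestinal epithelium, chosen after their values were seen, were detected in libraries of every group, with wide differences between libraries of 1 group and a higher sum in Panc02 than in control libraries of the same number. Of 24 listed, 15 had values, and they summed to 88.0, 3.92 and 25.8 FPKM in Panc02 replicates 1, 2 and 3, to 19.9, 16.5 and 2.72 FPKM in KPC replicates, and to 1.44, 1.37 and 15.9 FPKM in control replicates. In number 2 the higher sum came mostly from the keratin Krt8, at 2.14 FPKM in Panc02 and 0.127 FPKM in control replicate 2. Most of the other genes were at 0 in Panc02 replicate 2. Lypd8, a secreted protein of the colon epithelium, was at 32.9, 0 and 5.86 FPKM in Panc02 libraries, 3.77, 3.84 and 0 FPKM in KPC libraries and 0, 0 and 3.25 FPKM in control libraries. The goblet cell genes Zg16, Clca1 and Agr2 and the epithelial genes Epcam and Krt19 had the same pattern, with 0 in control replicates 1 and 2 and in Panc02 replicate 2. Only 6 of the 15 were tested, and none of these passed. Krt8, a simple epithelial keratin, was 1 of them, at 6.54, 2.14 and 2.53 FPKM in Panc02 libraries and 0.251, 0.127 and 1.27 FPKM in control libraries, groups that did not overlap. Lypd8 differed by 5.08 log2 units between the libraries numbered 1, and the part of such RNA in other number 1 values was not tested; without Panc02 replicate 1, 19 genes passed higher and 28 lower against control.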
